A study of Mus musculus musculus x M. m. domesticus and Mus musculus musculus x Mus musculus castaneus and Mus musculus domesticus with 42 samples.

Results

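Transcript levels were compared in the liver of male F1 hybrids between 2 house mouse subspecies and in the liver of both parents. The comparison used 8 of the 42 arrays of the series: 2 males of Mus musculus musculus and 2 of Mus musculus castaneus, all 47 days old, 2 males of the musculus x castaneus F1 at 53 days and 2 of the castaneus x musculus F1 at 54 days. The mother is written first. The filter on signal and the spread behind each call came from all 14 liver arrays. These also hold domesticus males and both reciprocal F1 of musculus and domesticus, 2 arrays each, at ages that differed between these groups. The parents were wild-derived inbred lines and every animal was a male; the labels name no transgene or treatment, and each array is labelled with 1 male. Since parents and F1 were taken at different ages, age and hybrid state cannot be told apart in any comparison of F1 with parents, nor can age and cross direction between the F1. The comparison addresses how the F1 express transcripts that differ between the parents, and which transcripts of the F1 leave the range of both parents.

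In an F1 each autosomal gene is present as 1 copy from each parent. If each copy kept the output it has in its own parent, the F1 level would be the plain average of the parental levels, here called the linear midparent. The average of the log2 levels, the log2 midparent, lies at or below it, and the gap between them widens with the parental difference. A level at the mark of either midparent is called additive, a level at the mark of one parent dominant, and a level above or below both parents outlying. A transcript in the liver can be set by its own gene copy or by factors that act on both copies, and the liver is known for large strain differences in genes of drug metabolism and innate immunity.

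The signals were MAS5 values of 1-colour Affymetrix arrays, 1 per probe set, and a probe set is the group of probes that reads 1 transcript. Differences are on the scale of log2(signal + 31), and a call is a Benjamini-Hochberg adjusted p under 0.05 from limma over all 27022 tested probe sets, unless another adjustment is named. Group values are given in the order replicate 1, replicate 2, or as a mean ± SD. The labels describe the replicates as separate males, and with so few arrays a group the precision is low throughout. Replicates of a group correlated at 0.951 to 0.961 on the log2 scale, and the median signal of an array ranged from 97 to 144. None of the 14 hepatocyte markers on the array was under 31 on all 8 arrays, and their summed signal was 340430 to 386150 in the parents and 261230 to 330450 in the F1. Replicate 2 of the musculus x castaneus F1 stood apart: its summed signal of 13 exocrine pancreas genes was 128520, against 1658 to 2705 in the parents and 5673 to 9392 in the other F1, and its 9 skeletal muscle genes summed to 22016, against 717 to 3965 in the other F1 and 3003 to 16339 in the parents. The part of these transcripts in the results below was not tested, and counts without that array are given where they differ.

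Castaneus and musculus differed at 1771 of 27022 probe sets (6.55%), 849 higher in castaneus (3.14%) and 922 higher in musculus (3.41%). With the fit on the 8 arrays alone there were 1263 such calls. Across these 1771, the F1 lay between the parents and near the middle. With 0 for the lower and 1 for the higher parent, the median position of the mean of both F1 was 0.599 on the log2 scale (quartiles 0.440 and 0.744) and 0.466 on the linear scale (quartiles 0.319 and 0.625). The F1 thus lay above the log2 midparent at 66.7% of the probe sets and above the linear midparent at 44.7%. Over all tested probe sets, 57.3% lay below the log2 and 61.3% below the linear midparent, with medians of -0.04 and -0.07. Both cross directions gave the same picture, with log2 medians of 0.609 for a musculus mother and 0.610 for a castaneus mother, and linear medians of 0.472 in each. At 868 of the 1771 (49%), all 4 F1 arrays fell between the arrays of one parent and the arrays of the other.

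The choice of midparent mattered most where the parents differed most. On the log2 scale the median position rose with the parental difference, from 0.519 for the 415 probe sets under 1 log2 unit to 0.595 for 966 from 1 to 2, 0.670 for 275 from 2 to 3 and 0.707 for 115 over 3. On the linear scale the medians of the same groups were 0.449, 0.471, 0.495 and 0.413, with no such rise. The plot of F1 against parental difference shows this as points that bend away from the straight line of the log2 midparent at large differences in either direction. With an offset of 100 in place of 31 the overall medians were 0.573 and 0.459.

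**Figure D1:**
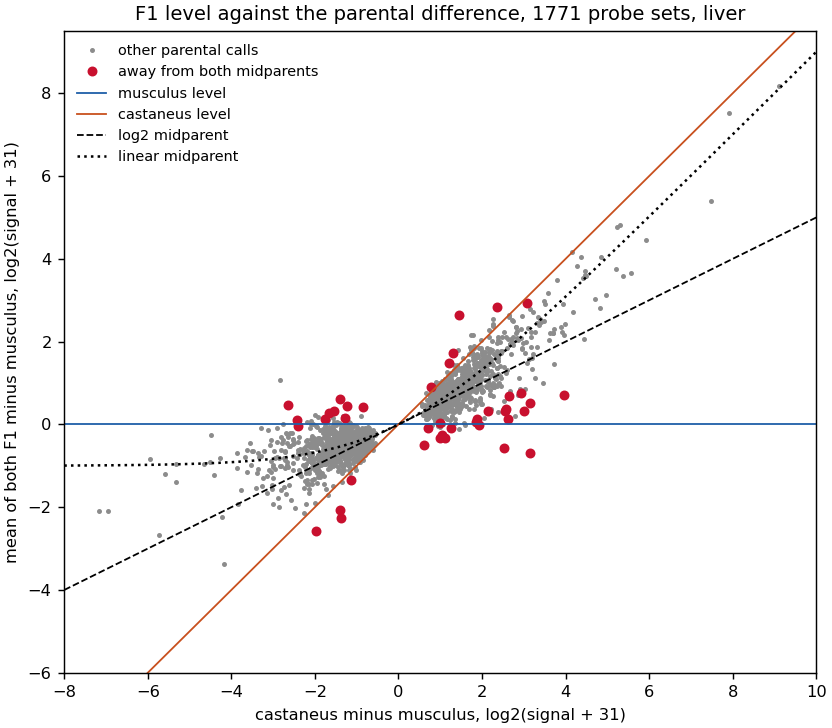
Mean of both F1 minus musculus (y axis) against castaneus minus musculus (x axis), both in log2(signal + 31), for the 1771 probe sets that differed between the parents in liver. Lines mark the musculus level, the castaneus level, the log2 midparent and the linear midparent. The 41 red points lay away from both midparents when adjusted over the parental calls, and at differences over 3 the median position was 0.707 on the log2 and 0.413 on the linear scale.

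Some of the called transcripts were close to silent in one parent. Such a transcript passed the filter on mean signal only through the other parent, the F1 and the other liver arrays, so a low F1 made it less likely to be tested, and the examples here are given singly, with no summary over the set.

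Moxd1, a monooxygenase related to dopamine beta-hydroxylase, read 10 and 9 in musculus, 22580 and 22183 in castaneus, 11278 and 13751 in the musculus x castaneus F1, with 13553 and 9015 in the castaneus x musculus F1. All 4 F1 arrays lay far above musculus and below castaneus, at 53.2% of the castaneus mean. The F1 lay 3.63 ± 0.66 (SE) above the log2 midparent (adjusted p = 0.0499) and 0.07 ± 0.81 from the linear midparent. Mrap, which carries the corticotropin receptor to the cell surface, read 3144 and 3481 in musculus, 25 and 21 in castaneus, 1782 and 1563 in the musculus x castaneus F1, with 2288 and 1780 in the castaneus x musculus F1, 55.9% of the musculus mean. It lay 2.14 ± 0.15 above the log2 midparent (adjusted p = 5.67e-05) and 0.14 ± 0.19 from the linear one. Ces2e, a carboxylesterase that cleaves ester drugs and lipids, had 2294 and 2838 in musculus and 30 and 38 in castaneus, while the F1 had 1650 and 996 in the musculus x castaneus direction and 1302 and 1313 in the other. Its F1 mean of 1315 ± 267 (SD, n = 4) lay 0.0026 ± 0.205 from the linear midparent and 1.70 ± 0.17 above the log2 midparent (adjusted p = 0.000845). The bile acid transporter Slc10a2, with 1177 and 922 in musculus and 4 and 21 in castaneus, had F1 signals of 1003, 400, 365 and 504 and was -0.01 ± 0.35 from the linear midparent. In these 4 genes the F1 arrays did not overlap those of the low parent.

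Other such genes stood away from the middle. Aldh1a2, which makes retinoic acid, read 21 and 9 in musculus, 848 and 718 in castaneus, 776 and 738 in the musculus x castaneus F1, with 719 and 950 in the castaneus x musculus F1. Its F1 arrays overlapped castaneus, 2.10 ± 0.21 above the log2 midparent (adjusted p = 0.000845) and 0.94 ± 0.25 above the linear midparent, the latter not a call (adjusted p = 0.383, or 0.0644 over the parental calls). Sult3a1, a cytosolic sulfotransferase that is female-biased in mouse liver, read 240 and 46 in musculus and 32423 and 36923 in castaneus. The F1 read 24618, 29252, 30081 and 22628, below castaneus on every array, 3.57 ± 0.30 above the log2 midparent (adjusted p = 0.00017) and 0.61 ± 0.36 from the linear one. At the other end stood 1 of 2 probe sets of the chemokine Cxcl14, near silent in musculus, with an F1 mean of 15.5% of castaneus, and a probe set of Dntt, the terminal transferase of developing lymphocytes, with an F1 mean of 23.9% of musculus. A second Dntt probe set read 5505 and 9140 in musculus and 103 and 103 in castaneus. There the F1, at 1217, 1054, 1347 and 784, lay at the log2 midparent (0.18 ± 0.26) and 1.71 ± 0.31 below the linear midparent (adjusted p = 0.102, or 0.0101 over the parental calls).

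Against the log2 midparent, limma called 65 of 27022 probe sets (0.241%), 53 above it (0.196%) and 12 below it (0.0444%), while 7.81% had an unadjusted p under 0.05. Of the 1771 parental calls, 54 were nonadditive on the log2 scale (3.05%), 48 above (2.71%) and 6 below (0.339%). The 48 had a median parental difference of 3.10 and lay a median of 1.31 above the log2 midparent but 0.48 above the linear midparent, and all 4 F1 arrays fell between the arrays of both parents at 23 of them. Of the 54, 44 had 1 gene name, and for 34 of these the gene had another tested probe set. The median parental difference of those others was at least 0.5 times as large in the same direction at 9. It was under 0.5 in size at 17, so many of these calls rest on 1 deviating probe set. Against the linear midparent, 7 of 27022 probe sets were called (0.0259%; 7.25% had an unadjusted p under 0.05), 5 of them parental calls (0.282%), all below it. The same 5 were called on both scales (0.282%): 2 probe sets of Saa1, 1 each of Cybb and Tmem176b, and 1 that the annotation gives to Tgtp1 and Tgtp2 together. The Cybb probe set and the last one, 2 of 1771 (0.113%), were near the musculus level in the mean of both F1. The count of 5 on both scales depended on single arrays. It was 3 and 2 without replicates 1 and 2 of musculus, 7 and 2 without those of castaneus, 6 and 10 without those of the musculus x castaneus F1, 3 and 0 without those of the castaneus x musculus F1, and 0 with the 8 arrays alone. The count of 5 on the linear scale became 5 and 3, 7 and 2, 10 and 20, and 4 and 1 in the same order, and 0 with the 8 arrays alone.

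When p-values were adjusted over the 1771 parental calls alone, 211 were nonadditive on the log2 scale (11.9%; 184 above, 10.4%, and 27 below, 1.52%) and 61 on the linear scale (3.44%; 16 above, 0.903%, and 45 below, 2.54%). On both scales in the same direction there were 41 (2.32%), 16 above (0.903%) and 25 below (1.41%), from 31 named genes. Most of the 25 below, 21, were higher in castaneus, and of the 16 above, 10 were higher in musculus. Near the musculus level lay 23 of the 41 (1.3% of the parental calls), near the castaneus level 5 (0.282%), beyond musculus 6, beyond castaneus 5 and between 0.25 and 0.75 of the way 2. Both F1 lay on the same side of the log2 midparent at all 41. Since the 41 were called by the mean of these same F1, this is no separate support. At Erdr1 the castaneus x musculus F1 was only -0.02 from that midparent. Without replicate 2 of the musculus x castaneus F1 the counts were 59 on both scales and 41 near the musculus level. For 21 of 34 probe sets with 1 gene name, the gene had another tested probe set, and the median parental difference of those was at least 0.5 times as large in the same direction at 10 and under 0.5 in size at 10. A sequence difference under the probes and a difference in transcript level cannot be told apart in the signals, so a gene read by 1 deviating probe set is described as that probe set.

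Genes near the musculus level included several of the innate immune system. Cybb, the catalytic subunit of the phagocyte NADPH oxidase, read 249 and 192 in musculus, 2234 and 2172 in castaneus, 195 and 227 in the musculus x castaneus F1, with 625 and 387 in the castaneus x musculus F1. The first F1 overlapped musculus, the second lay above it, and both were far below castaneus. From musculus (0) to castaneus (1) on the log2 scale they lay at -0.016 and 0.338, so the place near musculus rests on the mean. The linear midparent was described above for autosomal genes. Cybb is on the X chromosome, of which a male has 1 copy, from his mother. The midparents of autosomal genes therefore do not apply to Cybb, and its distances from them are given as description only. The F1 mean was 1.80 ± 0.20 below the linear midparent (-1.80, adjusted p = 0.00827) and 1.07 ± 0.18 below the log2 midparent (-1.07, adjusted p = 0.0278). With the castaneus x musculus F1 alone the log2 distance was -0.51 and no call. The 2 other probe sets of Cybb had a median parental difference of 2.18 and a median distance of -1.32 from the linear midparent. Oas1a, an antiviral oligoadenylate synthetase, had 463 and 287 in musculus and 3432 and 3508 in castaneus, and 115, 800, 258 and 75 in the F1, a wide spread around the musculus level. Ifit3, an interferon-induced inhibitor of translation of viral RNA, had 126 and 269 in musculus, 1096 and 1555 in castaneus and 194, 162, 319 and 182 in the F1, which overlapped musculus and stayed below castaneus. Their distances from the linear midparent were -2.98 ± 0.60 and -1.70 ± 0.29 (adjusted p = 0.0191 and 0.00751 over the parental calls, 0.158 and 0.0798 over all tested).

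Markers of Kupffer cells, the resident macrophages of the liver, are given beside these genes. Of 11 tested, 1 was called higher in castaneus and 1 lower, against 3.14% and 3.41% of all tested probe sets. Against the log2 midparent limma called 0, while 0.196% of all tested were called above and 0.0444% below. At an unadjusted p under 0.05 from limma, 5 lay below and 0 above, against 7.81% of all tested in either direction. The 12 markers on the array summed to 10503 and 10979 in musculus, 18082 and 22208 in castaneus and 6765 to 13826 in the F1, so the F1 overlapped the musculus sums and lay below the castaneus sums. The one called higher was Csf1r, the receptor of the macrophage growth factor (2315 and 2320 in musculus, 5206 and 7192 in castaneus, 1719, 4046, 3780 and 2941 in the F1), and the one called lower was C1qb, a complement subunit made by macrophages (1041 and 952 against 444 and 372). None of the 12 was under 31 on all 8 arrays. The part of the macrophage markers in the position of Cybb and of the interferon genes was not tested, and in whole liver fewer cells of a type and less RNA per cell cannot be told apart.

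Outside the innate immune genes, Ces1g and Ugt2b37 were near musculus, as were 1.3% of all parental calls. They were 1 of 13 tested carboxylesterases and 1 of 11 tested glucuronosyltransferases. In each family 3 genes were called higher in castaneus and 1 higher in musculus, against 3.14% and 3.41% of all tested probe sets. Ces1g, a carboxylesterase that acts on lipoprotein lipids, read 272 and 946 in musculus and 3185 and 3055 in castaneus, against 410 and 327 in the musculus x castaneus F1, with 423 and 229 in the castaneus x musculus F1. Its F1 arrays lay within or just below musculus and far below castaneus, 1.83 ± 0.33 under the log2 midparent (-1.83, adjusted p = 0.0472) and 2.32 ± 0.37 under the linear one (-2.32, adjusted p = 0.0747, or 0.00693 over the parental calls). Ugt2b37, a glucuronosyltransferase, had 440 and 321 in musculus and 752, 550, 635 and 604 in the F1, while castaneus had 14714 and 2680, so its midparent rests on 2 arrays that differ widely. Among genes higher in musculus, F2r, the thrombin receptor, had 2210 and 3595 in musculus, 676 and 1115 in castaneus and 4372, 4185, 2367 and 3125 in the F1, and lay 0.88 ± 0.20 above the linear midparent (adjusted p = 0.035 over the parental calls). Its second probe set behaved alike, with 3297 and 5540, 616 and 968, and then 5625, 6398, 3443 and 3593, at 0.86 above. Dpy19l3, a protein mannosyltransferase, had 2342 and 3029 in musculus, 1089 and 720 in castaneus and 3921, 3981, 2630 and 3050 in the F1, every one above the lower musculus array (0.90 ± 0.16 above the linear midparent, adjusted p = 0.00751 over the parental calls), and the median of its 2 other probe sets was 0.28 from that midparent. Arl1, a GTPase of the Golgi, had an F1 mean of 8283 ± 911 (SD, n = 4) by 1 probe set against 7410 ± 810 in musculus and 3005 ± 249 in castaneus, but its other probe set differed by -0.01 between the parents.

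The 5 probe sets near the castaneus level were led by Psmd6, a subunit of the proteasome lid, with 799 and 1227 in musculus, 8245 and 8984 in castaneus, 7187 and 7953 in the musculus x castaneus F1, with 8667 and 7486 in the castaneus x musculus F1. The F1 overlapped castaneus (position 0.954) and lay 0.70 ± 0.16 above the linear midparent (adjusted p = 0.266, or 0.0372 over the parental calls). A second Psmd6 probe set differed by only -0.09 between the parents, so the difference belongs to 1 probe set. Ugt3a1, a sugar transferase that conjugates drugs, had 308 and 728 in musculus, 1919 and 3494 in castaneus and 3707, 3747, 3306 and 3512 in the F1, 1.20 ± 0.26 above the linear midparent (adjusted p = 0.214, or 0.026 over the parental calls). Its other probe set differed by 2.64 between the parents and lay 0.73 above the linear midparent. Hspb1, a small heat shock protein, had 599 and 551 in musculus, 1344 and 1373 in castaneus and 1490, 1911, 1876 and 1446 in the F1, all above castaneus (0.77 ± 0.19 above the linear midparent, adjusted p = 0.0444 over the parental calls), and its other probe set lay 0.72 above. Pnpla5, a lipase of the patatin family, was the one gene of this kind higher in musculus, with 1149 and 915 against 530 and 385 in castaneus and 354, 380, 470 and 358 in the F1, -0.88 ± 0.22 from the linear midparent (adjusted p = 0.0497 over the parental calls). The fifth was 1 of several probe sets of Poldip3.

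**Figure D2:**
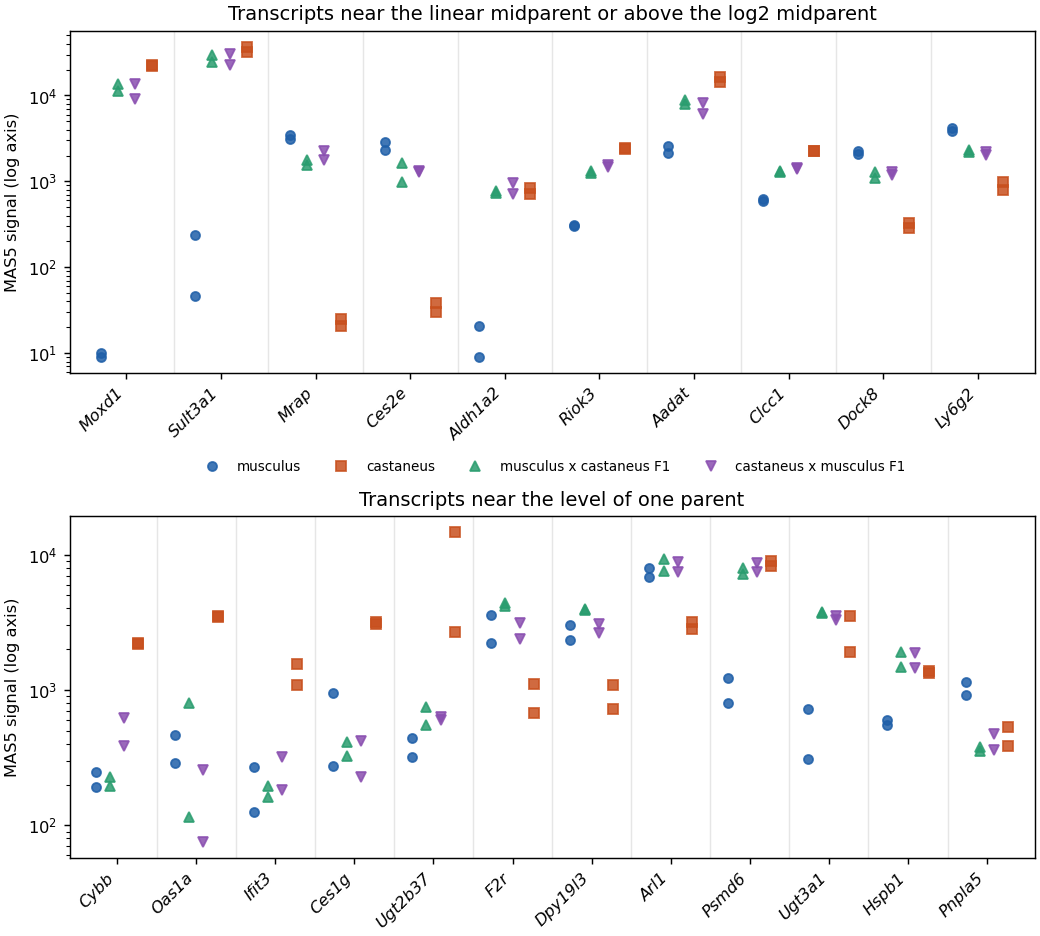
MAS5 signal of each of the 8 arrays (log axis) for 10 transcripts between the parents or above the log2 midparent (top) and 12 near the level of one parent (bottom); each point is 1 male. In Mrap the F1 stand just under musculus on the log axis, at 55.9% of its signal. In Ces1g the F1 stand with musculus and in Psmd6 with castaneus. In Cybb the musculus x castaneus F1 stands with musculus and the castaneus x musculus F1 above it.

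A direct test of an intermediate level asked whether the F1 lay between 0.25 and 0.75 of the way from one parent to the other. No probe set passed after adjustment, on either scale; at an unadjusted p under 0.05, 98 of 1771 passed on the log2 scale (5.53%) and 108 on the linear scale (6.1%). The clearest examples were therefore chosen by the unadjusted p with all 4 F1 arrays between those of the parents. Aadat, an aminotransferase of lysine and kynurenine breakdown, had 2559 and 2160 in musculus, 16514 and 14216 in castaneus, 7858 and 8926 in the musculus x castaneus F1, with 8124 and 6125 in the castaneus x musculus F1, and was -0.20 ± 0.15 from the linear midparent. Clcc1, a chloride channel of the endoplasmic reticulum, had 629 and 588, then 2249 and 2248, and F1 signals of 1319, 1276, 1405 and 1451 (-0.07 ± 0.12). Dock8, a regulator of the cytoskeleton in white blood cells, had 2068 and 2274 in musculus, 330 and 283 in castaneus and 1277, 1097, 1283 and 1201 in the F1 (-0.03 ± 0.16). In these 3 genes the F1 arrays stood apart from both parents. Other probe sets did not show it: the 3 others of Clcc1 had a median parental difference of -0.20 and the 2 others of Dock8 one of -0.85, with none called.

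Other transcripts were nearer the log2 midparent. Gstm2, a glutathione transferase, had 248 and 413 in musculus, 3855 and 4718 in castaneus and 1353, 1300, 1858 and 1264 in the F1, 0.24 ± 0.19 from the log2 and -0.67 ± 0.22 from the linear midparent. Psmb9, a subunit of the immunoproteasome, had 396 and 767, then 2835 and 3450, and F1 signals of 1334, 1330, 1500 and 1015, -0.05 ± 0.20 from the log2 and -0.51 ± 0.23 from the linear midparent. Mid1, a ubiquitin ligase, had 52 and 21 in musculus, 1729 and 1908 in castaneus and 456, 310, 541 and 436 in the F1 by 1 probe set (0.40 ± 0.22 and -1.06 ± 0.26), which its 2 other probe sets did not show (median parental difference 0.08). Mid1 is not an autosomal gene, so the midparents may not apply to it. The probe sets of the acetyltransferase gene Nat8f2 went opposite ways between the parents. One had 13103 and 15167 in musculus and 2728 and 2618 in castaneus, with 7492, 4469, 5964 and 7024 in the F1, and another had 245 and 367 against 6410 and 8622, with 3636, 3498, 4196 and 4478. By both, all 4 F1 arrays lay between the parents.

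The classical MHC class I gene H2-D1, whose sequence varies greatly between mouse lines, also had probe sets that went opposite ways. Of its tested probe sets, 1 read 1810 and 1725 in musculus and 14050 and 18435 in castaneus, with 5791, 6728, 7670 and 6066 in the F1, and 1 read 6725 and 6694 in musculus and 235 and 292 in castaneus, with 3328, 3568, 4040 and 3315. Each F1 array thus carried part of both signals. The distances from the linear midparent were -0.45 and 0.03.

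Interferon response genes are induced through the interferon receptors, as in viral infection, and those of the list that differed were higher in castaneus, with the F1 nearer to musculus in the median. The lists here and below were not chosen independently of these data. Of 38 tested genes, 24 were higher in castaneus and 0 lower, against 3.14% and 3.41% of all tested probe sets. The F1 lay below the linear midparent at 24 of these 24 and below the log2 midparent at 21, against 54.2% and 32.5% of all 849 probe sets higher in castaneus. The median position of the 24 was 0.306 on the log2 and 0.175 on the linear scale, against 0.605 and 0.470 over the 849. All 4 F1 arrays lay below both castaneus arrays at 24 of 24 genes, against 66.2% of the 849, and above both musculus arrays at 13 of 24, against 79.9% of the 849. Over all 38, the median distance from the log2 midparent was -0.34, against -0.04 over all tested probe sets, and was between -0.41 and -0.25 with any array left out. The related gene Ifi44l, which is not on the list and is named after its values were seen, was lower in castaneus than in musculus, with 248 and 209 in musculus, 20 and 26 in castaneus and 66, 101, 77 and 15 in the F1.

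Few single genes of the list passed a test. With adjustment over all tested probe sets, limma called 0 of the 38 against the log2 midparent. At an unadjusted p under 0.05 from limma, 14 lay below it and 1 above it, against 7.81% of all tested in either direction. Over the parental calls, 8 were below the linear midparent and 3 below both (Oas1a, Ifit3 and Gbp6), and 1, Ifi27, was above the log2 midparent. Irf7, the transcription factor that amplifies interferon production, read 561 and 494 in musculus, 2021 and 2355 in castaneus, 578 and 1026 in the musculus x castaneus F1, with 816 and 655 in the castaneus x musculus F1. The F1 reached down to the musculus level and stayed far below castaneus (-0.82 ± 0.19 from the linear midparent, adjusted p = 0.0372 over the parental calls). Mx1, a GTPase that blocks viral replication, had 87 and 64, then 515 and 641, and 97, 133, 159 and 122 in the F1. Gbp6, a guanylate-binding protein of cell-autonomous immunity, had 359 and 390, then 1819 and 1674, and 449, 667, 361 and 471 in the F1. Ifi27 was the exception, with 357 and 305 in musculus, 16366 and 17664 in castaneus and 2449, 8186, 4756 and 4438 in the F1, at position 0.659 on the log2 and 0.252 on the linear scale. Replicate 2 of the musculus x castaneus F1, the array with pancreas transcripts, was the highest F1 array at 15 of the 24 genes. Without it 9 genes were below both midparents over the parental calls, and 3 were below the log2 midparent over all tested.

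**Figure D3:**
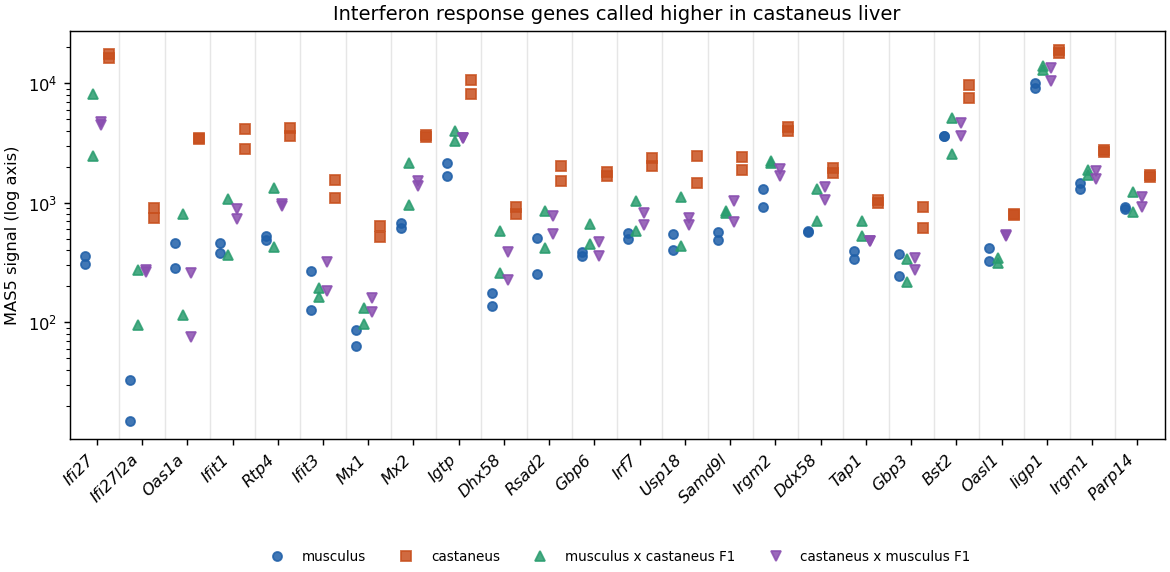
MAS5 signal of each of the 8 arrays (log axis) for the 24 interferon response genes higher in castaneus than in musculus liver, ordered by the parental difference; each point is 1 male. The castaneus squares are the highest points of every gene, and the F1 triangles lie at a median of 0.306 of the log2 distance from the musculus circles to the castaneus squares, with Ifi27 at 0.659.

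Antigen presentation by MHC class I showed a similar placement in fewer genes. Of 17 tested, 5 were higher in castaneus (3.14% of all tested probe sets) and 0 lower, with the F1 below the linear midparent at all 5 and at a median position of 0.374 on the log2 scale. Psmb8, an immunoproteasome subunit, had 694 and 691 in musculus, 2581 and 3088 in castaneus and 800, 1091, 1216 and 906 in the F1, -0.81 ± 0.18 from the linear midparent (adjusted p = 0.0285 over the parental calls). Tap1, the peptide transporter that is on this list and the interferon list, had 336 and 397, then 1002 and 1056, and 525, 710, 482 and 478.

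Cholesterol synthesis stood on the other side. Of 21 tested genes, 9 were higher in castaneus (3.14% of all tested probe sets) and 0 lower, and at 0 of these 9 did the F1 lie below either midparent, against 32.5% of the 849 for the log2 midparent. Their median position was 0.735 on the log2 and 0.642 on the linear scale, and limma called 0 of 9 against a midparent (1 on the log2 and 0 on the linear scale at an unadjusted p under 0.05). Sqle, the squalene epoxidase, had 1765 and 2579 in musculus, 4778 and 5741 in castaneus and 4050, 3885, 4728 and 4303 in the F1. Idi1, the isopentenyl diphosphate isomerase, had 6761 and 10101, then 14600 and 20486, and 15442, 17151, 15373 and 15341, within the castaneus range. Hmgcs1, which makes the precursor of mevalonate, had 14878 and 16947, then 26149 and 33626, and 22601, 26567, 26079 and 20263. In each the F1 arrays were above musculus and within or below the castaneus range. The number of genes called higher in castaneus fell to 4 without replicate 1 of musculus or replicate 2 of castaneus.

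Genes of drug and lipid metabolism differed between the parents in both directions; of all tested probe sets, 3.14% were higher in castaneus and 3.41% in musculus. Of 42 cytochrome P450 genes of families 1 to 4, 6 were higher in castaneus and 4 in musculus, with median positions of 0.450 and 0.473 from musculus to castaneus, against 0.605 and 0.406 over all parental calls. Cyp2j9 had 249 and 322 in musculus, 21 and 17 in castaneus and 284, 156, 230 and 238 in the F1, overlapping musculus, 1.02 ± 0.20 above the log2 midparent (adjusted p = 0.00528 over the parental calls) and 0.48 ± 0.22 from the linear one. Of 13 carboxylesterases, 3 were higher in castaneus and 1 in musculus, and all 4 were nonadditive on the log2 scale over the parental calls (11.9% of all parental calls), 3 above (Ces2a, Ces2b and Ces2e) and 1 below (Ces1g). Against the linear midparent, 0 were called above and 1, Ces1g, below, as were 0.903% and 2.54% of all parental calls. The place of the other 3 thus depended on the scale. Ces2b had 124 and 155 in musculus, 5644 and 7132 in castaneus and 4716, 4724, 4896 and 4109 in the F1, 0.50 ± 0.50 from the linear midparent. Of 20 glutathione transferases, 2 were higher in castaneus and 4 in musculus, and limma called 0 of them nonadditive over the parental calls (1 on each scale at an unadjusted p under 0.05).

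Of 28 genes known to be sex-biased in mouse liver, 7 were higher in castaneus and 3 in musculus, against the same 3.14% and 3.41%. Of these 3 lay above the log2 midparent over the parental calls (Moxd1, Sult3a1 and Susd4), as did 10.4% of all parental calls. Hsd3b5, a male-specific steroid dehydrogenase, had 5810 and 4812 in musculus, 19346 and 17927 in castaneus and 12566, 14654, 14355 and 9025 in the F1, all between the parents and 0.06 ± 0.17 from the linear midparent. Among other groups, 3 of 25 genes of fatty acid synthesis were higher in musculus (3.41% of all tested), with the F1 below both midparents at all 3, as at 34.0% (log2) and 56.3% (linear) of all 922 probe sets higher in musculus. Bile acid genes were higher in musculus at 4 of 29 and coagulation proteins at 3 of 19, also against 3.41% of all tested. Of 24 genes of fatty acid oxidation, 2 were higher in castaneus and 3 in musculus, against 3.14% and 3.41%.

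Outlying transcripts were rare by test. With the F1 mean against each parent, 1 of 27022 probe sets was called outside both (0.0037%), a probe set without a gene name. Its identifier has the suffix _x_at, a kind left out when named genes were chosen. This probe set read 97 and 64 in musculus, 22 and 20 in castaneus, 232 and 800 in the musculus x castaneus F1, with 4255 and 7015 in the castaneus x musculus F1. All 4 F1 arrays lay above all parents, by 3.86 ± 0.40 over the nearer parent (adjusted p = 0.00833), and the castaneus x musculus F1 was 3.56 above the other F1 (-3.56 as coded, adjusted p = 0.0334). It was no longer called with either musculus array or replicate 2 of the castaneus x musculus F1 left out. At an unadjusted p under 0.05, 68 lay above (0.252%) and 172 below both parents (0.637%), and by arrays alone all 4 F1 stood above all 4 parents at 236 (0.873%) and below them at 486 (1.8%).

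Serum amyloid A genes were low in the F1, most of all in the castaneus x musculus direction. Saa1, an acute phase apolipoprotein secreted by hepatocytes, read 11050 and 21497 in musculus, 6530 and 5356 in castaneus, 7999 and 5766 in the musculus x castaneus F1, with 1613 and 1391 in the castaneus x musculus F1. The first F1 overlapped castaneus and the second lay far below both parents. The mean of both was 1.57 ± 0.20 below the log2 midparent (-1.57, adjusted p = 0.00811) and 1.73 ± 0.21 below the linear one (-1.73, adjusted p = 0.0156), and with the musculus x castaneus F1 alone the log2 distance was -0.49 and no call. Its second probe set had 15271 and 25096, then 8924 and 6131, then 11652 and 8225, and 2096 and 2244, at -1.38 ± 0.20 from the log2 midparent (adjusted p = 0.0116). Saa2 had 5654 and 11905 in musculus, 4324 and 2906 in castaneus, 3767 and 2335 in the musculus x castaneus F1, with 744 and 857 in the castaneus x musculus F1 (-1.78 ± 0.25, adjusted p = 0.0116). Saa3, made mainly by macrophages, had 920 and 893, then 2006 and 1578, then 361 and 989, and 385 and 352 (-1.37 ± 0.23, adjusted p = 0.0308). In Saa1 and Saa2 the castaneus x musculus F1 was below every other array, and in Saa3 it was joined by replicate 1 of the other F1.

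The acute phase and complement list as a whole lay low in the F1. Of 38 tested genes, 3 were below the log2 midparent over all tested, the 3 Saa genes, and 0 above, against 0.0444% and 0.196% of all tested probe sets; at 11 of 38 all 4 F1 arrays were below all 4 parental arrays, against 1.8% of all tested probe sets, and the median was -0.35. With one or the other castaneus x musculus array left out, limma called 0 of the 38 below, with medians of -0.41 and -0.25. Lcn2, an iron-chelator-binding protein of inflammation, had 686 and 330 in musculus, 850 and 1060 in castaneus, 311 and 364 in the musculus x castaneus F1, with 122 and 137 in the castaneus x musculus F1 (-1.54 ± 0.29, adjusted p = 0.0541). Orm1, an acute phase glycoprotein, differed from these, with 535 and 842 in musculus, 19060 and 17561 in castaneus and 7236, 6106, 7453 and 3184 in the F1, between the parents. Hepatocyte markers also lay low, though limma called 0 of 14 against the log2 midparent. At an unadjusted p under 0.05 from limma, 9 lay below and 1 above, against 7.81% of all tested in either direction. At 9 of 14 all 4 F1 arrays were below all parents, against 1.8% of all tested, with a median of -0.34. Albumin (Alb) was not among the 9, with 27892 and 20808 in musculus, 30075 and 26011 in castaneus and 17602, 18465, 22356 and 17416 in the F1, which overlapped musculus. After quantile normalization the medians were -0.12 for the acute phase list and -0.04 for the hepatocyte markers. The summed signal of 9 neutrophil markers, cells that store Lcn2, was 1570 to 1905 in the parents and 810 to 1351 in the F1. The part of either marker list in the acute phase values was not tested.

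Tmem176b and Tmem176a, neighbouring membrane proteins of macrophages and dendritic cells, were both low in the F1. Tmem176b had 6750 and 5286 in musculus, 9086 and 9198 in castaneus, 3820 and 4662 in the musculus x castaneus F1, with 4314 and 4050 in the castaneus x musculus F1. Every F1 array lay below every parental array, 0.84 ± 0.12 below the linear midparent (-0.84, adjusted p = 0.0336) and 0.51 ± 0.14 below the nearer parent (-0.51, unadjusted p = 0.00383 from limma, adjusted p = 1). Tmem176a had 5731 and 4583, then 5170 and 6595, then 3040 and 3233, and 3670 and 2694, also with no overlap (-0.70 ± 0.19 from the nearer parent, unadjusted p = 0.00314 from limma), and its 2 other probe sets lay -0.23 and -0.46 from the nearer parent. A pair of genes of vessels and basement membrane were placed alike without passing the adjusted test against both parents. Col4a1, a collagen of basement membranes, had 522 and 316, then 362 and 509, and 186, 111, 197 and 107 in the F1 (-1.35 ± 0.23 from the log2 midparent, adjusted p = 0.0326). The endothelin-converting enzyme Ece1 had 3036 and 2432, then 2285 and 2778, and 1708, 1480, 1731 and 1309. Their other probe sets lay -0.25 and -0.08 from the nearer parent. Summed endothelial markers overlapped between parents (10494 to 17011) and F1 (8515 to 14251).

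Examples above both parents were taken by the smallest unadjusted p. Zfp36, an RNA-binding protein that shortens the life of cytokine mRNA, had 1768 and 1740 in musculus, 1244 and 1666 in castaneus, 2371 and 3389 in the musculus x castaneus F1, with 2227 and 3068 in the castaneus x musculus F1, 0.63 ± 0.21 above the nearer parent (unadjusted p = 0.0112 from limma, adjusted p = 1). Ttbk1, a kinase of tau and tubulin, had 228 and 293, then 247 and 244, and 521, 548, 429 and 545 (0.90 ± 0.22). Serpina9, a protease inhibitor, had 164 and 149, then 275 and 106, and 379, 709, 667 and 292. The pancreatic elastase Cela1 had 1125 and 1878 in musculus, 804 and 689 in castaneus and 2150, 17223, 4666 and 3094 in the F1, the 17223 being the array with pancreas transcripts.

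**Figure D4:**
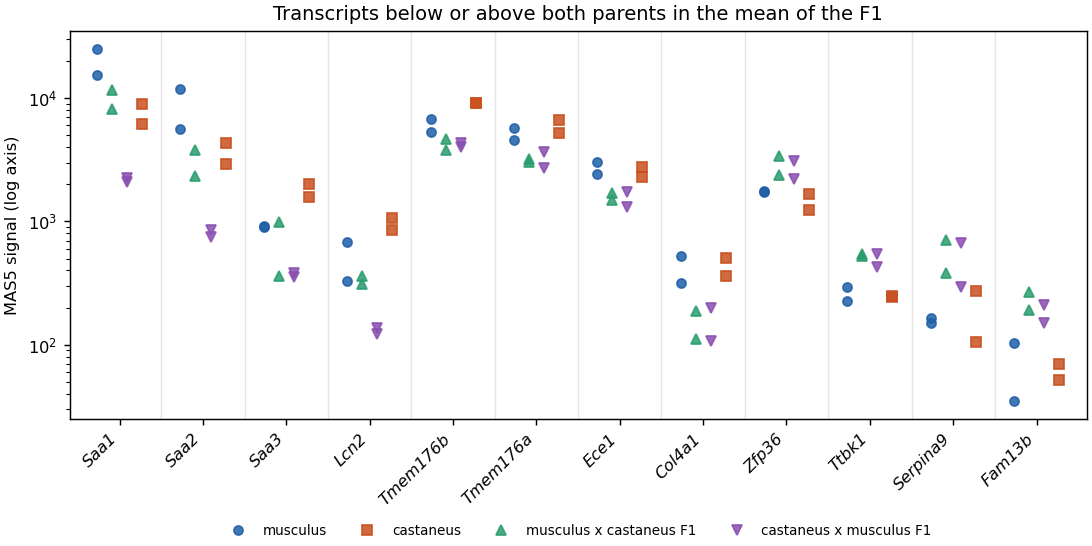
MAS5 signal of each of the 8 arrays (log axis) for 8 transcripts whose F1 mean lay below both parents and 4 whose F1 mean lay above both; each point is 1 male. In Tmem176b, Tmem176a, Ece1 and Col4a1 every F1 triangle is below every parental point, while in Saa1 the castaneus x musculus F1 alone is below both parents.

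The mean of both F1 hides a difference between them at a few transcripts. The cross directions differed at 10 of 27022 probe sets (0.037%), a count that depended on single arrays: it was 28 without replicate 1 and 1 without replicate 2 of the musculus x castaneus F1, 4 and 0 without those of the castaneus x musculus F1, 2 without either musculus array, 12 and 11 without the castaneus replicates, 1 with the 8 arrays alone and 0 without the filter. Of the 10, those of Araf, Ftsj1, Serpina7 and Ntrk2 read in each F1 close to the subspecies named first in its cross. So did 1 probe set with no gene name. A probe set given to Snurf and Snrpn together did not: its castaneus x musculus F1 overlapped musculus, and its musculus x castaneus F1 lay below both parents. Araf differed by -2.37 between the parents at this probe set, while its 4 other probe sets had a median of 0.28. Ftsj1 differed by -1.29 here and by -0.45 at its other probe set. Ntrk2 differed by -1.09, and its 2 other probe sets had a median of -0.95. Ftsj1, a tRNA methyltransferase whose gene is on the X chromosome, had 1088 and 1038 in musculus, 468 and 368 in castaneus, 1272 and 1492 in the musculus x castaneus F1, with 564 and 488 in the castaneus x musculus F1. Ntrk2, a neurotrophin receptor whose gene is autosomal, had 3625 and 4903, 2184 and 1755, 5210 and 4574, and 1888 and 2067 in the same order. For these the distance of the F1 mean from the log2 midparent, 0.34 and 0.11, describes neither F1.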

How the data were processed

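Male liver RNA was hybridised to 1-colour Affymetrix arrays, 1 per sample. The authors deposited MAS5 values, per the submitters' processing notes, used here as linear intensity; all further processing is not given in the sources used here. Array means agreed closely after trimming 2% (496.87 to 497.48). Of 45037 probe sets, 27022 were tested: those whose mean log2(signal + 31) over the 14 liver arrays reached the 40th percentile (a signal of 82.4); 31 is the 20th percentile of all values. limma 3.58.1 in R 4.3.3 fitted 7 genotypes with 2 arrays each (lmFit, eBayes with trend; 7 residual degrees of freedom) and was checked on simulated data. p-values were Benjamini-Hochberg adjusted over all tested probe sets, with a threshold of 0.05, or, where stated, over the 1771 parental calls. The linear midparent used the delta method, and the test of an intermediate level used 2 one-sided tests at positions 0.25 and 0.75. A probe set counted as near a parent when it was called on both scales and its position from musculus (0) to castaneus (1) was within 0.25 of that parent.

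Named genes were up to 6 per class, from called probe sets of 1 symbol without the suffix _x_at. They had the largest parental difference among those whose F1 arrays did not overlap the far parent. That rule gave 1 gene over all tested probe sets, so it was repeated over the parental calls, and intermediate and outlying examples were ranked by unadjusted p, both chosen after the values were seen. Other genes come from the lists or were singled out after their values were seen. The members and lists were chosen with earlier results of these data known. A list reads each gene by its brightest tested probe set. Of the probe sets, 34945 had 1 gene symbol, 932 several and 9160 none in the platform annotation. Replicate numbers did not pair the samples: the 6 correlations of same-numbered deviations ran from -0.277 to 0.297, with 1 over 0.1. Alternatives were an offset of 100, no filter, quantile normalization, the 8 arrays alone, a replicate block, each F1 alone and each array left out.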

Additional observations from a re-analysis of the deposited data

Results flagged for a closer look

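The reciprocal F1 differed at 10 of 27022 probe sets by limma; differences are musculus x castaneus F1 minus castaneus x musculus F1, in log2(signal + 31). Higher in the musculus x castaneus F1 were Serpina7, the thyroxine-binding globulin, by 3.52 (adjusted p = 0.039) and 1 probe set of Araf by 2.60 (adjusted p = 0.0334). So were Saa1 by 2.16 at each of 2 probe sets (adjusted p = 0.0354 and 0.0334), Ftsj1 by 1.34 and Ntrk2, a neurotrophin receptor, by 1.29 (adjusted p = 0.039 for both). Serpina7 read 1373 and 1385 in musculus, 135 and 540 in castaneus, 1619 and 1881 in the musculus x castaneus F1 and 237 and 58 in the castaneus x musculus F1. One further probe set differed by 1.53 (adjusted p = 0.039). Lower in the musculus x castaneus F1 were Erdr1 by 1.61 (-1.61, adjusted p = 0.039), a probe set given to Snurf and Snrpn together by 1.67 (-1.67, adjusted p = 0.049) and the unnamed probe set above both parents by 3.56 (-3.56, adjusted p = 0.0334). The Snurf and Snrpn probe set read 2202 and 1774 in musculus and 1440 and 764 in castaneus. Its F1 read 598 and 623 with a musculus mother, and 1809 and 2227 with a castaneus mother. Age, 53 against 54 days, and cross direction cannot be told apart here.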

How the results depend on the processing

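No direction reversed. Adjusted over the parental calls, 211 probe sets were called on the log2 scale, 61 on the linear scale and 41 on both, with 5 near castaneus and 23 near musculus. With the 8 arrays alone the counts over all tested were 35 on the log2 and 0 on the linear scale or both, 0 near musculus, 0 outside both parents and 1 between the F1, and 38 on the linear scale over the parental calls. With an offset of 100 they were 11 on the linear scale and, over the parental calls, 62 on both and 15 near castaneus. Without the filter they were 3 on the linear scale, 3 on both and 0 between the F1, and over the parental calls 113 linear, 78 both, 20 near castaneus and 46 near musculus. Quantile normalization gave 1 near musculus. The musculus x castaneus F1 alone gave 31 on the log2 scale, 4 near musculus, 0 outside, and 3 near castaneus over the parental calls. The castaneus x musculus F1 alone gave 20 log2, 2 linear, 2 both and 0 near musculus, and over the parental calls 135, 33, 23, 3 near castaneus and 7 near musculus. The causes were not tested.

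With each array left out in turn, the parental calls ran from 745 (without musculus replicate 1) to 1763. Over all tested, log2 calls ran from 15 to 57, linear from 1 to 20, both from 0 to 10, near castaneus from 0 to 1, near musculus from 0 to 4, outside from 0 to 2 and between the F1 from 0 to 28. Over the parental calls, log2 ran from 155 to 261, linear from 29 to 77, both from 23 to 61, near castaneus from 0 to 16 and near musculus from 12 to 45. The replicate numbers do not pair the samples; with the replicate block there were 1731 parental calls and 3 near castaneus over the parental calls. The alternative without sex-chromosome and mitochondrial genes was not run, since the probe sets were not assigned to chromosomes.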
